A study of Mus musculus with 6 samples.

Results

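The genes described here are known from the mucus and defence layer of the airway surface, though other cells of whole lung also make some of them. They were taken by symbol from the deposited matrix, which lists 56980 mouse genes: the BPI-fold genes Bpifa1 and Bpifb1, the mucin genes Muc5b, Muc5ac, Muc1, Muc4 and Muc16, and the defence genes Reg3g, Pigr and Ltf, 10 genes in all, each with 1 entry. RNA of whole lung was sequenced from NSG mice, an immunodeficient strain without mature T, B and natural killer cells, 5 weeks after a mammary fat pad received human breast cancer cells. In the Ctrl group (3 libraries) the xenograft grew from the triple-negative line MDA-MB-231, and in the DPP3_KO group (3 libraries) from MDA-MB-231 cells with DPP3, the gene of dipeptidyl peptidase 3, knocked out. The labels name no deletion in the mice themselves, give no age, do not say whether the knockout line was a clone, and number the replicates without saying that each was a separate mouse, so p-values measure the spread between these libraries. The tissue label was met by the data: the surfactant gene Sftpc stood between 14519 and 38794 TPM in every library.

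Airway mucus is a gel of secreted mucins, which form long polymers, lying over a brush of membrane-anchored mucins on the epithelial cells. Muc5b is the main gel-forming mucin of the healthy mouse airway, while Muc5ac is low at rest and is induced when mucous cells form. The BPI-fold proteins of Bpifa1 and Bpifb1 are secreted lipid-binding proteins of the airway. Together with lectins, iron-binding proteins and transported antibodies they keep the airway surface clear of bacteria.

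The values are TPM, each gene's length-corrected share of the transcripts in a library, so levels of different genes can be set side by side. The TPM of a library add up to the same total in every library, and Scgb1a1, the secretoglobin of airway club cells, took 7.16% to 10.1% of that sum in Ctrl and 21.7% to 28.7% in DPP3_KO. Changes are therefore given on the log2(TPM + 1) scale as deposited and again after dividing each library by its median-of-ratios size factor, here called size-factor scaling, so that a typical gene shows no change. The median log2 change over all 15650 genes tested was -0.60 as deposited and -0.03 after that scaling. The sequencing depth behind TPM is unknown, and in whole tissue fewer cells of a type and less RNA per cell cannot be told apart.

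The 250 bases before the annotated start are shown for the 3 genes with the largest differences between the groups, Bpifa1, Bpifb1 and Reg3g. They come from RefSeq on build GRCm38.p6, an earlier build than the GRCm39 of the deposited values, and 8 of the 10 genes had an entry in the promoter table. The Bpifa1 window is chr2:154142630-154142879 on the plus strand. The Bpifb1 windows, for its 2 annotated starts, are chr2:154190568-154190817 and chr2:154200130-154200379, also on the plus strand, so the BPI-fold genes lie close together on chromosome 2. The Reg3g window is chr6:78468875-78469124 on the minus strand. Capitals mark matches to any of 5 motifs searched on both strands: the TATA box TATAAA, the forkhead motif TGTTTNC, the STAT motif TTCNNNGAA, the E-box CACGTG and the C/EBP motif TTGCNNAA.
Bpifa1: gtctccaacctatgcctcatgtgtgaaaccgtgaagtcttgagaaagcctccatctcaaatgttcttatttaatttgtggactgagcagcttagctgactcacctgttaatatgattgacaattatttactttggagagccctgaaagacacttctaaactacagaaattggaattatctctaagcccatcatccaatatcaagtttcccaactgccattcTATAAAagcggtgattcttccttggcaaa
Bpifb1 start 1: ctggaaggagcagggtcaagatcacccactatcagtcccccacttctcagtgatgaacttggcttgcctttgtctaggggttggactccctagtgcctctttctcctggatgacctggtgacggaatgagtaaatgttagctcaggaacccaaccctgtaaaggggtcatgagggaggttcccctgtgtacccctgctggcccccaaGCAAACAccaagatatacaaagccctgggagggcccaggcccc
Bpifb1 start 2: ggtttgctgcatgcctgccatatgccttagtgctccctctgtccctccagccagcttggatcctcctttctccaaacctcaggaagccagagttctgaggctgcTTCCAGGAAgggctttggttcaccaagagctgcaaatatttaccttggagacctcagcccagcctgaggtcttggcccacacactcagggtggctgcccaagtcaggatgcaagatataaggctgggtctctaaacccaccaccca
Reg3g: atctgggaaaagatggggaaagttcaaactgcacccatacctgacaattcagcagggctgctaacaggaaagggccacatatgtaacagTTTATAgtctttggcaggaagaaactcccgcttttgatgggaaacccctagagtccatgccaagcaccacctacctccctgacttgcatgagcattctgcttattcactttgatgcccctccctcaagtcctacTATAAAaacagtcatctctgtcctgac
The TATA box lay 29 to 24 bases before the start of Bpifa1 and 27 to 22 bases before that of Reg3g, and a further match in the reverse orientation lay 161 to 156 bases before the Reg3g start. Neither Bpifb1 window held it; the first held a forkhead match in the reverse orientation and the second a STAT match. Among the other genes, Muc1 and Muc4 had the TATA box near the start, Pigr an E-box, Ltf a forkhead and a C/EBP match, and Muc16 none of the 5 motifs. Of 32817 promoter windows of the same length in the table, 12.4% held the TATA box, 17.8% the forkhead motif, 7.01% the STAT motif, 6.02% the E-box and 9.57% the C/EBP motif. No motif was found in the windows of all 3 of these genes.

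Of the 10 genes, 9 reached the mean of 1 TPM needed for testing, and only Muc5ac did not. Bpifb1 alone was called higher as deposited (limma with an intensity trend, Benjamini-Hochberg adjusted p under 0.05), 1 of 9 tested, against 1.38% of all genes tested, and 0 of 9 were called lower, against 34.0% of all genes. After size-factor scaling limma called 0 higher, against 1.90% of all genes, and 0 lower, against 0.882%. At an unadjusted p under 0.05, 3 of 9 were higher as deposited (2.26% of all genes) and 7 of 9 after scaling (11.5% of all genes), and in both fits limma had 0 lower, against 48.0% of all genes as deposited and 11.6% after scaling. The estimate lay above 0 for 8 of 9 genes as deposited, where 13.8% of all genes had a positive estimate, and for 9 of 9 after scaling (47.7% of all genes). The median log2 change of the 9 genes was 0.84 as deposited and 1.30 after scaling. The genes were picked with earlier results of these data known, so these counts describe the set and are no test of it.

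**Figure D1:**
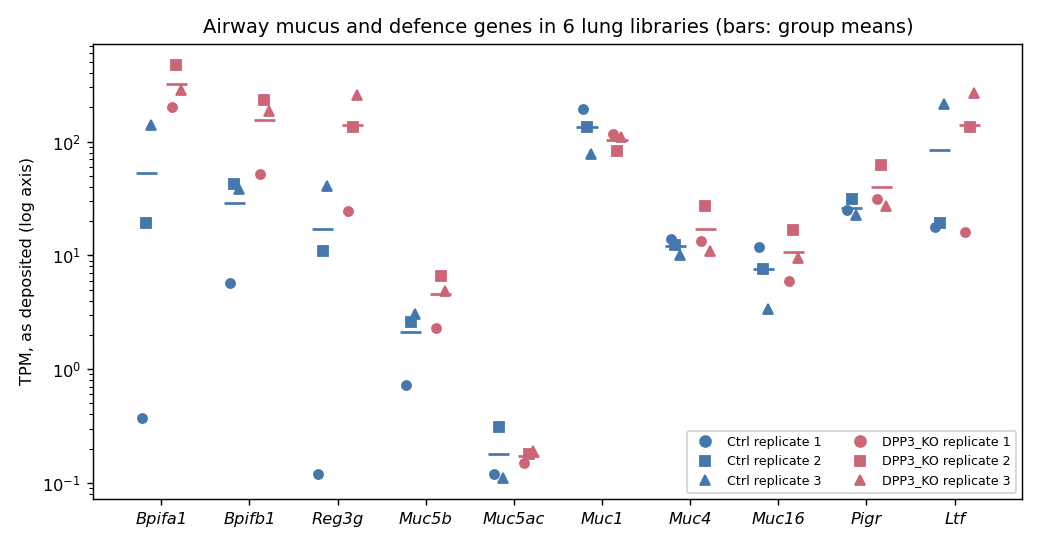
TPM as deposited (log axis) of the 10 genes in each of the 6 lung libraries; points are libraries, marked by replicate number, and bars are group means. Bpifa1 and Bpifb1 are the only genes of the 10 whose DPP3_KO libraries all lie above all Ctrl libraries, and Bpifa1 and Reg3g in Ctrl replicate 1, at 0.37 and 0.12 TPM, lie far below every other library.

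Bpifa1 (ENSMUSG00000027483) encodes a secreted protein of the conducting airway, also called SPLUNC1, that spreads on liquid surfaces and restrains epithelial sodium channels. It stood at 0.37, 19.45 and 140.47 TPM in Ctrl replicates 1 to 3 and at 202.62, 475.31 and 283.17 TPM in DPP3_KO replicates 1 to 3. All DPP3_KO libraries lay above all Ctrl libraries, and the Ctrl libraries themselves were 379.6-fold apart. The mean was 53.4 ± 76.0 TPM (SD, n = 3) in Ctrl and 320.4 ± 140.1 TPM in DPP3_KO, 6.00-fold higher. The log2 change of 4.25 ± 1.47 (SE) missed the threshold (limma adjusted p = 0.0574), as did 4.82 after size-factor scaling (adjusted p = 0.123). The size of the change rested largely on Ctrl replicate 1, without which it was 2.49 (adjusted p = 0.0716), and it passed without Ctrl replicate 3 (5.83, adjusted p = 0.0234).

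Bpifb1 (ENSMUSG00000027485), also called LPLUNC1, encodes a larger BPI-fold protein with both lipid-binding domains, secreted by airway secretory cells. Its TPM was 5.75, 42.58 and 38.47 in Ctrl and 51.82, 231.13 and 185.44 in DPP3_KO. The groups did not overlap, but DPP3_KO replicate 1 was much closer to Ctrl replicates 2 and 3 than to the other DPP3_KO libraries. The mean rose from 28.9 ± 20.2 to 156 ± 93.2 TPM, 5.40-fold (log2 change 2.54 ± 0.83 SE, limma adjusted p = 0.0490). After size-factor scaling the change was 3.17 and did not pass (adjusted p = 0.0945). Leaving out Ctrl replicate 1, 2 or 3, or DPP3_KO replicate 2 or 3, ended the call, with log2 changes of 1.67, 3.01, 2.94, 2.13 and 2.29; without DPP3_KO replicate 1 it was 3.20 and still called (adjusted p = 0.0363).

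As deposited, groups without overlap and with DPP3_KO above were found for these 2 of 9 genes and for 2.73% of all genes tested, and the reverse, DPP3_KO below, for 0 of 9 and 51.1%. The relation of the BPI-fold genes to each other was not constant. Bpifb1 was the more abundant in Ctrl replicates 1 and 2, and Bpifa1 in Ctrl replicate 3 and all DPP3_KO libraries. The log2 difference Bpifa1 minus Bpifb1 averaged -0.52 ± 2.13 (SD, n = 3) in Ctrl and 1.20 ± 0.68 in DPP3_KO, overlapping groups (two-sided exact permutation p = 0.3, where 3 against 3 cannot go below 0.1). Among 14 other BPI-fold and related lipid-binding genes, 9 were listed at 0 in every library, including Bpi and Bpifb2 to Bpifb4, and 3 could be tested. Of those, Pltp, the phospholipid transfer protein gene (417 ± 113 to 172 ± 42.4 TPM), fell by 1.27 on the log2 scale as deposited (limma adjusted p = 0.0197) and stood at -0.61 after scaling (adjusted p = 0.318). Bpifb5 fell by 0.86 as deposited (limma adjusted p = 0.0292), with -0.39 after scaling, and Lbp, the lipopolysaccharide-binding protein gene, stood at -0.28 and 0.37 without passing. The salivary gland member Bpifa2 was highest at 1.04 TPM, in Ctrl replicate 1, and was listed at 0 in DPP3_KO replicates 2 and 3.

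Reg3g (ENSMUSG00000030017) encodes a secreted C-type lectin that kills Gram-positive bacteria at mucosal surfaces. Its TPM was 0.12, 10.87 and 40.55 in Ctrl and 24.71, 133.56 and 259.66 in DPP3_KO. The groups overlapped, since Ctrl replicate 3 was above DPP3_KO replicate 1. The mean was 17.2 ± 20.9 TPM in Ctrl and 139 ± 118 in DPP3_KO, a ratio of 8.11, the highest of the 10 genes, but the log2 change of 3.56 ± 1.36 (SE) did not pass (limma adjusted p = 0.0749; 4.10 and 0.147 after scaling). It was 2.12 without Ctrl replicate 1, and 4.73 and called without Ctrl replicate 3 (limma adjusted p = 0.0375). Its relatives Reg3b and Reg3a, which could share reads with it, were at most 0.46 TPM and at 0 in every library.

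**Figure D2:**
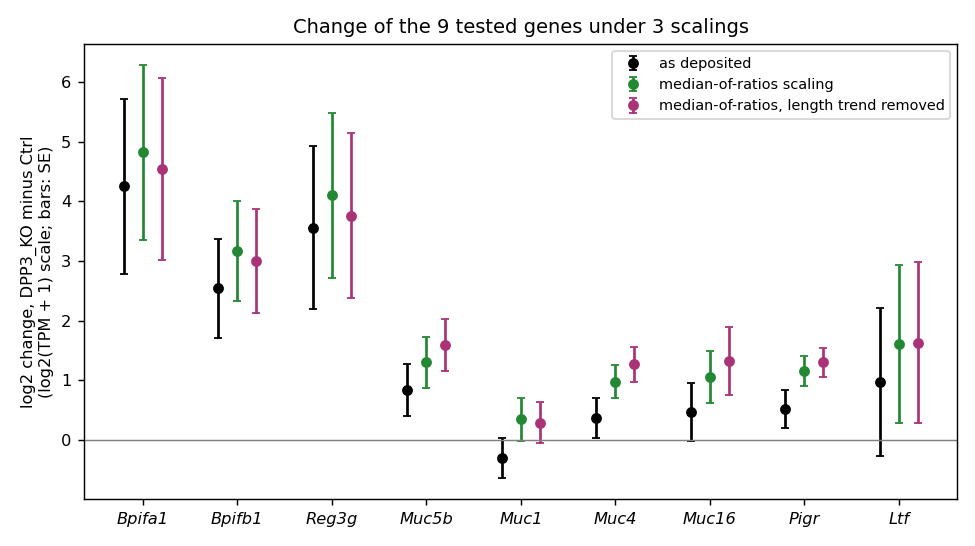
Log2 change, DPP3_KO minus Ctrl, on the log2(TPM + 1) scale for the 9 tested genes, as deposited, after size-factor scaling, and with the trend with gene length also removed; points are limma estimates and bars their SE. Bpifa1, Reg3g and Bpifb1 have the largest estimates and, with Ltf, the widest errors, and Muc1 alone lies below 0 as deposited (-0.30) and above 0 after scaling (0.35).

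Of the gel-forming mucins, Muc5b (ENSMUSG00000066108) was present at a low level and Muc5ac (ENSMUSG00000037974) barely. Muc5b stood at 0.73, 2.61 and 3.06 TPM in Ctrl and 2.28, 6.55 and 4.83 TPM in DPP3_KO. DPP3_KO replicate 1 lay within the Ctrl range, and the change of 0.84 ± 0.44 (SE) on the log2 scale did not pass (limma adjusted p = 0.159). After size-factor scaling the groups no longer overlapped, with a change of 1.30 that also missed the threshold (adjusted p = 0.137). Muc5ac lay between 0.11 and 0.31 TPM in Ctrl and between 0.15 and 0.19 TPM in DPP3_KO, so the DPP3_KO libraries fell inside the Ctrl range. Muc5b exceeded Muc5ac in every library, by a log2(TPM + 1) difference of 1.32 ± 0.63 (SD, n = 3) in Ctrl and 2.16 ± 0.59 in DPP3_KO (two-sided exact permutation p = 0.2).

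A further secreted mucin, Muc6, best known from the stomach, was not among the 10 genes but was 1 of the 2 other mucin genes that could be tested. It was 0.40, 0.27 and 0.28 TPM in Ctrl and 1.59, 1.87 and 2.19 TPM in DPP3_KO, without overlap and with little spread. It rose by 1.13 ± 0.25 (SE) on the log2 scale as deposited (limma adjusted p = 0.0207) and by 1.43 after size-factor scaling (adjusted p = 0.0419). Muc20, a membrane mucin gene, did not pass at -0.54 (limma adjusted p = 0.227), and the others of the 12 mucin genes found in the matrix had a mean below 1 TPM. Among 23 genes of mucous cell regulation and mucus assembly, 16 were tested, with a median log2 change of -0.48 against -0.60 over all genes. As deposited 0 rose and 3 fell, against 1.38% and 34.0% of all genes tested, and limma called 0 after scaling. The 3 that fell were the chloride channel genes Ano1 (-2.16) and Cftr (-0.89) and the sialyltransferase gene St6galnac1 (-1.19). Galnt6, an enzyme gene that starts mucin O-glycans, stood at -1.10 without passing (limma adjusted p = 0.0663). Clca1, a secreted partner of mucins in mucous cells, was at most 0.06 TPM. Agr2, Tff1 and Tff2 of the same list stood above 0 without passing, at 1.37, 1.47 and 0.98 (limma adjusted p = 0.0846, 0.268 and 0.432).

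The membrane mucin genes varied less across the libraries than most of the secreted products: the highest library was 2.52-fold, 2.70-fold and 4.98-fold above the lowest for Muc1, Muc4 and Muc16, against 8.97-fold for Muc5b, 16.8-fold for Ltf and 40.2-fold for Bpifb1. Muc1 (ENSMUSG00000042784), a transmembrane mucin of alveolar type 2 and airway cells, stood at 194.82, 134.43 and 77.24 TPM in Ctrl and 117.71, 82.53 and 110.69 TPM in DPP3_KO. The groups overlapped fully, and its log2 change was -0.30 ± 0.34 (SE, limma adjusted p = 0.491) as deposited and 0.35 (adjusted p = 0.596) after size-factor scaling. Of 10 alveolar type 2 markers 5 were lower as deposited, with a median of -1.07, against 34.0% and -0.60 over all genes tested. After scaling limma called 0 of them, with a median of -0.42, against 0.882% called lower and -0.03 over all genes.

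Muc4 (ENSMUSG00000118672), a long surface mucin of the conducting airway, was 13.84, 12.40 and 10.01 TPM in Ctrl and 13.26, 27.07 and 10.85 TPM in DPP3_KO. Only DPP3_KO replicate 2 stood above the Ctrl libraries as deposited, and the change of 0.37 ± 0.33 (SE) did not pass (limma adjusted p = 0.391). After size-factor scaling all DPP3_KO libraries lay above all Ctrl libraries, at 0.98 ± 0.27 (limma adjusted p = 0.101). Such separation with DPP3_KO above was seen after scaling for 5 of the 9 genes, namely Bpifa1, Bpifb1, Muc5b, Muc4 and Pigr, and for 14.6% of all genes tested.

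Muc16 (ENSMUSG00000109564), the largest membrane mucin, is made by airway epithelium and by the mesothelium that covers the lung. It was 11.98, 7.63 and 3.39 TPM in Ctrl and 5.99, 16.88 and 9.55 TPM in DPP3_KO, overlapping groups with a change of 0.47 ± 0.48 (SE, limma adjusted p = 0.440; 1.06 and 0.215 after scaling). Mesothelial genes shared part of this profile. Msln was 116.83, 64.08 and 30.83 TPM in Ctrl and 54.84, 90.47 and 87.84 TPM in DPP3_KO, and Upk3b was 8.02 TPM in Ctrl replicate 3, where Msln and Muc16 were also lowest. The highest library was Ctrl replicate 1 for both markers and DPP3_KO replicate 2 for Muc16. Wt1 was highest in DPP3_KO replicate 2, as Muc16 was, and Upk1b in DPP3_KO replicate 3. The rest of the mesothelial list was highest in Ctrl replicate 1. The 10 mesothelial markers summed to 228 to 638 TPM in Ctrl and 328 to 431 TPM in DPP3_KO, and 0 of 10 passed in limma. The part of mesothelium in the Muc16 values was not tested.

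Pigr (ENSMUSG00000026417) encodes the receptor that carries polymeric IgA and IgM across epithelium. It was 24.95, 31.09 and 22.53 TPM in Ctrl and 31.42, 62.29 and 27.24 TPM in DPP3_KO. DPP3_KO replicate 2 was the highest library and the other DPP3_KO libraries were near the Ctrl range (log2 change 0.52 ± 0.32 SE, limma adjusted p = 0.223). After size-factor scaling it had the smallest adjusted p of the 9 genes, at 1.16 ± 0.25 (adjusted p = 0.0637), with no overlap between the groups. Of the genes of its cargo, Igha, the IgA heavy chain gene, was at most 0.07 TPM and the joining chain gene Jchain at most 0.16 TPM. Ighm, the IgM heavy chain gene, was detected at 14.95, 12.85 and 5.81 TPM in Ctrl and 4.03, 2.88 and 6.61 TPM in DPP3_KO, and its log2 change of -1.11 did not pass (limma adjusted p = 0.0592). Of 9 genes of IgA production and transport 4 were tested, and limma called 0 higher and 0 lower as deposited and after scaling. Fcgrt, the neonatal Fc receptor gene, stood at -0.76 (limma adjusted p = 0.0666) and the B cell factor genes Tnfsf13 and Tnfsf13b at -0.72 and -0.48, and Fcamr, an IgM receptor gene, at -0.14, none of which passed.

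Ltf (ENSMUSG00000032496) encodes lactoferrin, an iron-binding protein of neutrophil granules and of airway gland and surface secretions. Its TPM was 17.77, 19.28 and 214.38 in Ctrl and 16.00, 134.97 and 268.73 in DPP3_KO. The libraries fell into low and high values within each group, so the change of 0.98 ± 1.24 (SE) was smaller than its error (limma adjusted p = 0.543). For 13 of 15 neutrophil markers the 3 libraries high in Ltf were also all above the other 3. The exceptions were the receptor genes Cxcr2 and Csf3r, which in DPP3_KO replicate 3 (57.71 and 71.92 TPM) were below Ctrl replicate 2 (103.66 and 198.73 TPM). S100a8, a neutrophil calprotectin gene, was 965, 1766 and 17949 TPM in Ctrl and 394, 10614 and 4826 TPM in DPP3_KO, and the granule gene Ngp was 34.4, 42.9 and 1304 TPM in Ctrl and 11.7, 304 and 487 TPM in DPP3_KO. The 15 neutrophil markers summed to 4726, 7752 and 57254 TPM in Ctrl and 1854, 37277 and 16969.5 TPM in DPP3_KO, and limma called 0 of them in either direction. Within the high libraries the order differed: Ltf was highest in DPP3_KO replicate 3, and S100a8 and Ngp in Ctrl replicate 3. The part of neutrophils in the Ltf values was not tested.

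**Figure D3:**
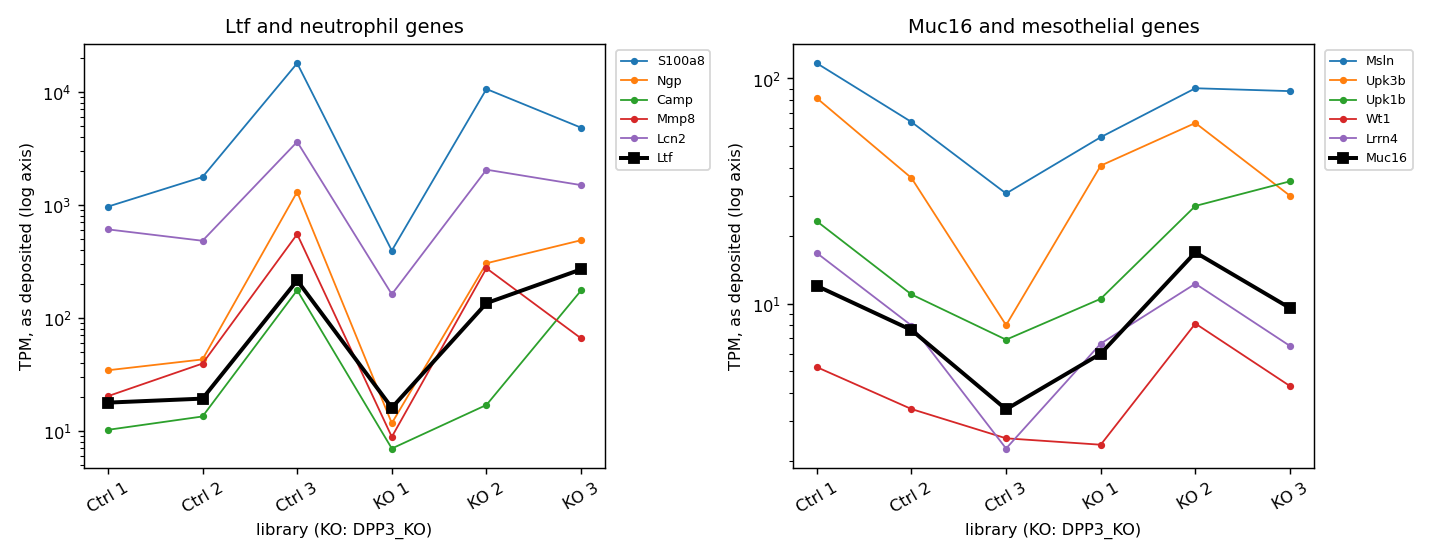
TPM as deposited (log axis) by library for Ltf beside 5 neutrophil genes (left) and Muc16 beside 5 mesothelial genes (right); each line joins the values of a gene only to show its profile. Ltf and the neutrophil genes are high in Ctrl replicate 3 and in DPP3_KO replicates 2 and 3, except that Camp, at 16.95 TPM, is low in DPP3_KO replicate 2; Muc16 is lowest in Ctrl replicate 3 at 3.39 TPM.

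The order of levels among the 10 genes differed between the groups. In Ctrl, Muc1 had the highest mean (135 TPM), followed by Ltf (83.8), Bpifa1 (53.4), Bpifb1 (28.9), Pigr (26.2), Reg3g (17.2), Muc4 (12.1), Muc16 (7.67), Muc5b (2.13) and Muc5ac (0.18). From Muc1 to Muc16 each gene's range overlapped that of the gene above it, whereas Muc5b and Muc5ac were each below their neighbour in all libraries. In DPP3_KO, Bpifa1 came first (320.4 TPM), then Bpifb1 (156), Ltf (139.9), Reg3g (139) and Muc1 (104), all with ranges that overlapped their neighbour's, and Pigr (40.3) and Muc4 (17.1) were each below the range of the gene above. Muc16 (10.8) and Muc5b (4.55) followed with overlapping ranges, and Muc5ac (0.173) was below all of them. Bpifa1 was the most abundant of the 10 in 3 of 3 DPP3_KO libraries, and Muc1, Muc1 and Ltf were in Ctrl replicates 1, 2 and 3. The BPI-fold genes made up 2.26%, 22.1% and 32.5% of the summed TPM of the 10 genes in Ctrl and 54.6%, 60.4% and 40.4% in DPP3_KO.

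Club cell genes were higher in the same DPP3_KO libraries: 6 of 12 club cell markers rose as deposited and 5 after scaling. Of 12 ciliated cell markers 7 and 8 rose. The shares over all genes tested were 1.38% and 1.90%. The ciliated cell sums overlapped, at 1019 to 1520.3 TPM in Ctrl and 1298 to 1515 TPM in DPP3_KO. The ciliated cell markers Sec14l3 and Tppp3 stood at -1.14 and -0.14 as deposited without passing. The 5 club cell genes that rose in both fits were the secretoglobin genes Scgb3a1 and Scgb3a2 and the genes Cyp2a5, Cldn10 and Gsta3, and Scgb1a1 itself stood at 2.31 after scaling without passing (limma adjusted p = 0.054). The club cell markers summed to between 81728 and 114767 TPM in Ctrl and between 238041 and 309924 TPM in DPP3_KO, nearly all of it Scgb1a1. Set against Scgb1a1 in the same library, none of the 10 genes was higher in DPP3_KO without overlap. For Bpifb1 the log2 difference from Scgb1a1 was -13.48, -11.18 and -10.82 in Ctrl and -12.41, -9.87 and -10.55 in DPP3_KO, a change of 0.89 between overlapping groups (two-sided exact permutation p = 0.5). For Bpifa1 and Reg3g the changes were 2.60 and 1.90 (exact p = 0.3 and 0.4). On the log2(TPM + 1) scale Muc1, Muc4 and Pigr were lower relative to Scgb1a1 in all DPP3_KO libraries than in any Ctrl library. The changes were -1.96, -1.28 and -1.13 (exact permutation p = 0.1 for each, the smallest that 3 against 3 allows, and not past 0.05). For Muc4 the gap was narrow, with DPP3_KO replicate 2 at -12.92 and Ctrl replicate 2 at -12.88. It depended on the pseudocount: at 0.1 the Muc4 change was -1.26 and the groups overlapped (exact permutation p = 0.2). The Pigr difference was nearly the same in the Ctrl libraries, at -11.53, -11.62 and -11.57. Muc5ac also separated, at -1.66, while Muc5ac itself was at most 0.31 TPM and Scgb1a1 rose by 1.65 on the log2 scale (limma adjusted p = 0.0156). In all, 12 within-library differences were compared, and with this design none could pass the threshold before or after adjustment. The part of club cells in the values of the 10 genes was not tested.

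**Figure D4:**
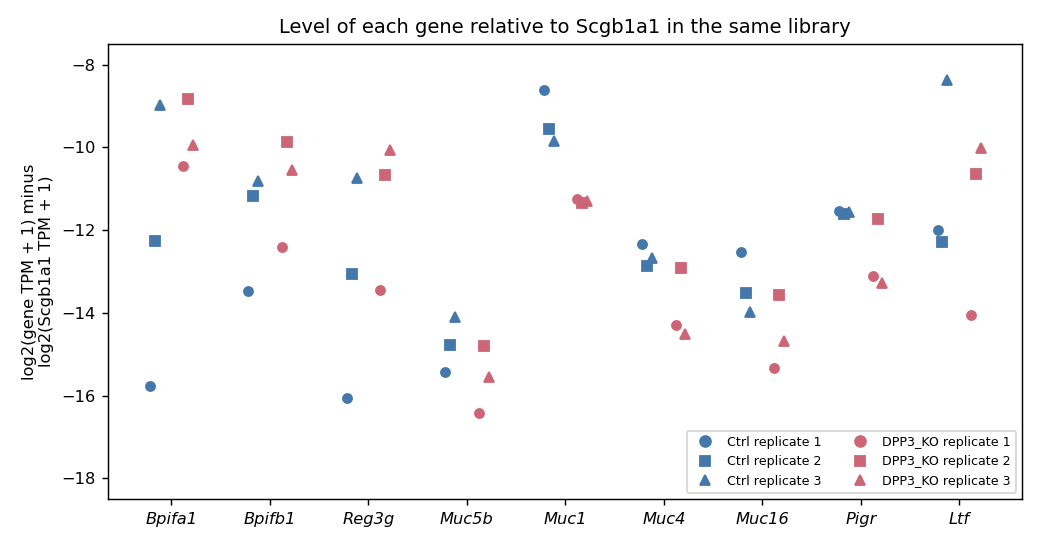
Log2(TPM + 1) of each of the 9 tested genes minus that of Scgb1a1 in the same library; points are libraries. The DPP3_KO points of Muc1 lie close together at -11.24 to -11.34, below all Ctrl points, while those of Bpifa1, Bpifb1 and Reg3g overlap the Ctrl points.

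Markers of other cells and tissues that could hold these genes were measured beside them. Of the basal cell markers, Krt5 was at most 1.66 TPM, in DPP3_KO replicate 3, and Trp63 at most 0.32 TPM. The tracheal cartilage genes Col2a1 and Acan were at most 0.12 and 0.02 TPM, and 7 of 12 submucosal and salivary gland markers were listed at 0 in all libraries. Other genes of these lists were higher: Chad, a cartilage matrix gene, was 11.01 to 25.4 TPM, and Aqp5, a gland water channel gene that is also on the alveolar type 1 list, was 109.73 to 399.66 TPM. Krt14, a basal cell keratin gene, at 0.34 to 0.96 TPM in Ctrl and 1.06 to 2.43 TPM in DPP3_KO, and Amy1, an amylase gene, at 1.86 to 3.35 and 3.60 to 5.04 TPM, had all DPP3_KO libraries above all Ctrl libraries, with log2 changes of 0.71 and 0.57 (limma adjusted p = 0.103 and 0.101). Of the plasma cell markers, Sdc1 was 33.97 to 121.7 TPM and Xbp1, which is also on the mucous cell list, 98.29 to 215.81 TPM. None of the 1 basal cell, 2 cartilage, 2 gland and 4 plasma cell markers tested passed in limma as deposited or after scaling, and their part in the values of the 10 genes was not tested.

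Marker genes of tissues and cells other than the airway lining also differed between the groups. Of 11 heart and striated muscle markers 6 rose as deposited and 6 after size-factor scaling, and their sum was 496 to 1014 TPM in Ctrl and 1896 to 2123 TPM in DPP3_KO. Lower as deposited were 8 of 10 alveolar type 1 cell markers, 9 of 12 alveolar macrophage markers and 7 of 10 endothelial markers. After scaling 2, 7 and 3 of these lists' genes were lower. Among them were the alveolar type 1 genes Pdpn and Clic5 and the endothelial genes Cdh5, Erg and Calcrl. Over all genes tested, 1.38% rose and 34.0% fell as deposited, and 1.90% rose and 0.882% fell after scaling. Of adipose markers 7 were tested: Cidea rose in both fits and Lipe fell as deposited, and of thyroid and oesophagus markers 2 were tested and 1, Iyd, rose in both fits. The part of these differences in the values of the 10 genes was not tested.

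Other antimicrobial and defence genes of the airway lining were mixed. Of 24 listed, 14 were tested. As deposited 4 rose and 1 fell, against 1.38% and 34.0% of all genes tested. With size factors limma called 3 higher and 0 lower, against 1.90% and 0.882%. The median log2 change of the 14 genes was -0.05 as deposited and 0.56 after scaling. Cxcl17, a mucosal chemokine gene, went up from 91.8 ± 2.07 to 233 ± 36.8 TPM, a rise of 1.32 ± 0.17 (SE) on the log2 scale (limma adjusted p = 0.0145, and 1.98 after scaling, adjusted p = 0.00966). Wfdc2, a secreted protease inhibitor gene, rose from 766 ± 218 to 1407 ± 83.2 TPM (0.92, limma adjusted p = 0.0311), and Ccl20, a chemokine gene of airway epithelium, from 0.807 ± 0.295 to 4.54 ± 3.21 TPM (1.48, adjusted p = 0.0312), and both also passed after scaling at 1.58 and 1.87. The fourth was Lypd2 (1.35, limma adjusted p = 0.0358), named after its values were seen, which did not pass after scaling. The lysozyme gene Lyz2 of macrophages and alveolar type 2 cells fell by 1.18 on the log2 scale as deposited (limma adjusted p = 0.0160) and stood at -0.52 after scaling.

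Of the cytokine genes known to induce mucins and Reg3g, Il17a and Il13 were listed at 0 in every library. Il22 and Il4 were listed at 0 in all Ctrl libraries and were at most 0.06 and 0.20 TPM in DPP3_KO. Il17f was at most 0.49 TPM, in Ctrl replicate 2. The cytokine gene Il1b, by contrast, was 207.42, 191.98 and 213.24 TPM in Ctrl and 37.25, 355.01 and 129.86 TPM in DPP3_KO. Its log2 change of -0.76 as deposited did not pass (limma adjusted p = 0.407). The inflammatory cytokine genes Il6 and Tnf stood at 0.49 and 0.45 on the log2 scale as deposited (limma adjusted p = 0.576 and 0.706) and at 0.88 and 0.91 after scaling, and neither passed. Of 19 cytokine, receptor and transcription factor genes 13 were tested, 0 rose and 3 fell as deposited, and limma called 0 after scaling. For comparison, 34.0% of all genes tested fell as deposited and 1.38% rose. The list's median estimate was -0.71 as deposited and -0.08 after scaling, against -0.60 and -0.03 for all genes. The 3 that fell were the alarmin gene Il33 (-1.28) and the transcription factor genes Stat3 (-0.91) and Stat6 (-1.01). The receptor gene Il4ra stood at -0.91 without passing (limma adjusted p = 0.0722).

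Across the 6 libraries after size-factor scaling, the named gene with a profile nearest to Bpifb1 was Muc5b (Pearson r = 0.99), followed by Ppil6 and Lrrc36. The nearest to Muc5b were R3hcc1l, Bpifb1 and Zbtb8os, to Bpifa1 Dynlt1b, Zfand6 and Spsb1, and to Reg3g Cfap69, Zbtb8os and Orm3. For Muc1 they were Eri3, Prkcsh and Naa38, for Muc4 Cfap36, Rrad and Dcn, for Muc16 Grwd1, Tmem106c and Hpn, for Pigr Ddit4l, Sds and Styxl1, and for Ltf Rpph1, Ehbp1l1 and Batf, with r of 0.975 to 0.998 over all these neighbours. With only 6 libraries, between 10 and 113 named genes had r above 0.95 with each of the 9, and all points share the group difference and the scaling, so the values describe likeness and nothing more.

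**Figure D5:**
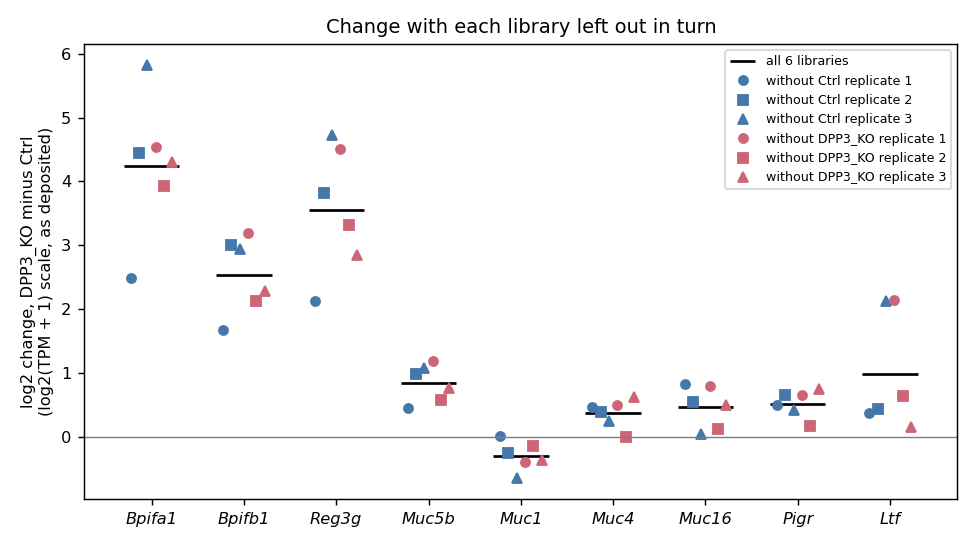
Log2 change, DPP3_KO minus Ctrl, as deposited, of the 9 tested genes with all 6 libraries (bars) and with each library left out (points). Without Ctrl replicate 1 the change of Bpifa1 drops from 4.25 to 2.49 and that of Reg3g from 3.56 to 2.12, and Ltf ranges from 0.15 to 2.14.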

How the data were processed

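Libraries were made from lung total RNA with the TruSeq RNA kit, per the labels. The authors deposited gene TPM as a matrix of 56980 genes. The submitters' processing notes list the tools HISAT2, StringTie and RSEM, with no version or role, and the build GRCm39. No source used here gives the annotation release, the strand setting or how reads from the human tumour cells were handled. TPM totals are equal in all libraries up to rounding, so depth is unknown and counting error could not be given. Groups and replicate numbers came from the sample titles; 1 Ctrl title (replicate 3) reads 232 where the others read 231, taken as a slip.

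TPM was changed to log2(TPM + 1), the 15650 genes averaging 1 TPM or more were kept, and the group difference was estimated by limma 3.58.1 under R 4.3.3 (eBayes with trend). Its two-sided p-values were adjusted by Benjamini-Hochberg across those genes, with a threshold of 0.05. Differences between genes within a library were compared with an exact permutation test (scipy 1.17.1). Size factors were medians of ratios to the geometric mean. The fit was tested on simulated data. Promoter sequences came from RefSeq. The genes described and the 21 lists were chosen with earlier results of these data known. Il1b, Il17f, Agr2, Tff1 and Tff2 were taken from those lists after their values were seen. Named beside the 10 genes were up to 4 tested genes with the smallest p of each of 6 pathway lists and the 3 nearest profiles of each tested gene, and Scgb1a1; other cell marker genes, Lypd2, Il6, Tnf and genes given for being at or near 0 (Igha, Jchain, Il17a, Il13, Il22, Il4, Clca1, Reg3a, Reg3b, Bpi and the Bpifa2 and Bpifb genes) were chosen from those lists after their values were seen. Alternatives were pseudocounts of 0.1 and 5, removing the filter or raising it to 5 TPM, other scalings, other variance models, the replicate number as a block, each library left out, and thresholds of 0.1 and 0.01.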

Additional observations from a re-analysis of the deposited data

How the results depend on the processing

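The change of each tested gene kept its direction under all alternatives run, apart from Muc1. As deposited, some changes nearly vanished with a library left out. Without DPP3_KO replicate 2, Muc4 was 0.0016 and Pigr 0.17. Muc16 was 0.05 without Ctrl replicate 3, and Ltf 0.15 without DPP3_KO replicate 3. Muc1 stood at -0.30 as deposited and at 0.0077 with TPM rescaled without Scgb1a1, 0.29 with the length trend removed, 0.35 after size-factor scaling with and without the replicate block, and 0.22 after quantile normalization. With a library left out it was -0.65 to 0.0073 as deposited, the latter without Ctrl replicate 1, and 0.66, 0.34, 0.04, 0.26, 0.6 and 0.21 after size-factor scaling (Ctrl replicates 1 to 3, then DPP3_KO). Ltf relative to Scgb1a1 was -0.68 and ranged from -1.46 to 0.58 with a library left out, 0.58 without Ctrl replicate 3 and 0.56 without DPP3_KO replicate 1. The count of the 10 genes called higher in limma was 1 as deposited. It was 0 with TPM rescaled without Scgb1a1, without the trend, with robust estimation, without a filter, after size-factor scaling with and without the length trend removed, after quantile normalization and at a threshold of 0.01. It was 2 with a pseudocount of 5, with a mean of at least 5 TPM and with the replicate block after size-factor scaling, 3 at a threshold of 0.1, and 0 to 2 with a library left out (0 to 0 after size-factor scaling). The replicate numbers did not pair the libraries: deviations of same-numbered libraries correlated at 0.273, -0.209 and 0.144, and Ctrl replicate 2 correlated best with DPP3_KO replicate 1 (0.37). With the replicate block 4 of the 10 genes were called higher, namely Bpifa1, Bpifb1, Muc5b and Reg3g, against 212 of all 15650 genes tested. That fit called 0 of the 10 genes lower, against 4734 of all genes. With sample quality weights Bpifa1 was called (adjusted p = 0.0336) and Bpifb1 was not (0.0908).

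Over all genes, 216 were higher as deposited, against 327 after quantile normalization, 39 with the replicate block after size-factor scaling, 353 at a threshold of 0.1, 2 at 0.01, 6 to 161 with a library left out and 18 to 179 (34, 47, 51 and 101 between) after size-factor scaling. The 5321 lower genes became 423 with TPM rescaled without Scgb1a1, 138 after size-factor scaling, 91 with the length trend removed, 140 after quantile normalization, 3093 without a filter, 12 with the replicate block after size-factor scaling, 13 at a threshold of 0.01, 85 to 5049 with a library left out and 6 to 175 (17, 19, 49 and 54 between) after size-factor scaling. The cause of these differences was not tested. Unknown depth limits all values under 1 TPM, among them those of Muc5ac, Muc6 and some of Ccl20 in Ctrl, and Bpifa1, Reg3g and Muc5b in Ctrl replicate 1.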
